A study of Mus musculus with 3 samples.

Results

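The genes described here are the 7 cyclin-dependent kinase inhibitor genes of the mouse, Cdkn1a, Cdkn1b, Cdkn1c, Cdkn2a, Cdkn2b, Cdkn2c and Cdkn2d, of 21779 protein-coding genes in the RefSeq gene table used. They were taken by name, and every HIF1α peak whose centre lies inside one of them or within 50 kb of either end was collected from the authors' merged list of 17289 peaks (mm10, the same build as GRCm38). The list comes from chromatin immunoprecipitation and sequencing of wild-type Black-Swiss embryonic hearts at E12.5, with 2 HIF1α pulldowns and 1 input with no antibody. Each peak carries a position, a whole-number score and the number of calls merged into it. That number was read as 2 where calls of both pulldowns were merged and as 1 where a single pulldown gave the call, and the pulldown behind a single call is not marked. The labels do not say whether the pulldowns came from separate pools of embryos. Values per library were not analysed here, so the depth is unknown, no value has a replicate error, and the labelled tissue could not be checked against marker genes.

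Cyclin-dependent kinase inhibitors hold the cell cycle back by binding the kinases that drive it. The Cip/Kip inhibitors p21 (Cdkn1a), p27 (Cdkn1b) and p57 (Cdkn1c) bind complexes of cyclins with several kinases, whereas the INK4 inhibitors p16 (Cdkn2a), p15 (Cdkn2b), p18 (Cdkn2c) and p19 (Cdkn2d) bind CDK4 and CDK6 and keep cyclin D away from them. Both kinds keep the retinoblastoma protein and its relatives active, which restrains the E2F transcription factors. HIF1α, the subunit through which oxygen controls the hypoxia-inducible factor, recognises with its partner a core of the letters ACGTG or GCGTG in DNA, and it has been linked to p21 and p27 in the arrest of cultured cells in low oxygen. The comparison addresses which of these inhibitor genes lie near loci called as bound by HIF1α in the fetal heart.

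No promoter window of an inhibitor gene overlapped a peak, so few sequences are printed. Of these, only the Kri1 sequence has bases under a peak. The RefSeq promoter table (GRCm38.p6, 250 bases before to 50 after each start) holds 9 windows for 6 of the 7 genes and none for Cdkn1c. The bases upstream of the start are printed for Cdkn1a (its downstream start) and Cdkn2b, whose nearest peaks lie within 2 kb of these starts in the values given further on. They are also printed for Kri1, the neighbour of Cdkn2d, since the peak closest to Cdkn2d falls on the Kri1 start. For Cdkn2c only the stretch between its upstream ACGTG matches is printed, since it is the inhibitor gene with that core and no peak. Capitals mark each match to ACGTG or GCGTG on either strand (read as CACGT or CACGC on the other), and matches that overlap run together.
Cdkn1a, chr17:29093519-29093768, plus strand: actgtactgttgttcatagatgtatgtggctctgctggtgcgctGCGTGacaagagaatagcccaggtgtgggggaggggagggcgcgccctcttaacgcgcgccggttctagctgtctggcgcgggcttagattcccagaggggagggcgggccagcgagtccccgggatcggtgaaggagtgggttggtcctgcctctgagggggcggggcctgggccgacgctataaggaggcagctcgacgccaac
Cdkn2b, chr4:89311033-89311282, minus strand: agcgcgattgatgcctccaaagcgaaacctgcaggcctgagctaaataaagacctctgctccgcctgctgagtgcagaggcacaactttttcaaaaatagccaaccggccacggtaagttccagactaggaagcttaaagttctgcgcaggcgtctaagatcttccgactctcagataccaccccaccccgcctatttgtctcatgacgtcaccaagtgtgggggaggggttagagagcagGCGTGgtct
Kri1, chr9:21287970-21288219, minus strand: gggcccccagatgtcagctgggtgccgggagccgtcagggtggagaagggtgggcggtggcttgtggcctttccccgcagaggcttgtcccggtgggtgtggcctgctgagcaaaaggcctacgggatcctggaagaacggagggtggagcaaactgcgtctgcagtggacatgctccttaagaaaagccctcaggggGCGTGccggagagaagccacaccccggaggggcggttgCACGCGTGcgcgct
Cdkn2c, chr4:109665468-109665495, minus strand: ACGTGacagctctgcctacatctCACGT

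Of the 7 inhibitor genes, 6 had at least 1 peak in the 50 kb window, against 64.8% of all protein-coding genes. The exception was Cdkn2c. The 6 genes had 12 distinct peaks between them, of which 3 were of 2 calls and 9 of 1 call. All 3 peaks of 2 calls lay in windows of Cip/Kip genes, 1 for Cdkn1a and 2 for Cdkn1c, although 1 of the latter was nearer to Kcnq1. Within 5 kb the count was 5 of 7, against 32.7% of protein-coding genes. Those 5 were all 3 Cip/Kip genes, Cdkn2b and Cdkn2d. Within 1 kb it was 2 of 7, Cdkn1a and Cdkn2d, against 28.4%. With peaks of 2 calls alone, 2 of 7 had a peak within 50 kb (21.4% of protein-coding genes) and the same genes, Cdkn1a and Cdkn1c, had one within 5 kb (9.04%). Within 1 kb only Cdkn1a had one, 1 of 7, against 7.72%. With 7 genes the counts are too small to read a family trend from these shares, and no test was made.

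**Figure D1:**
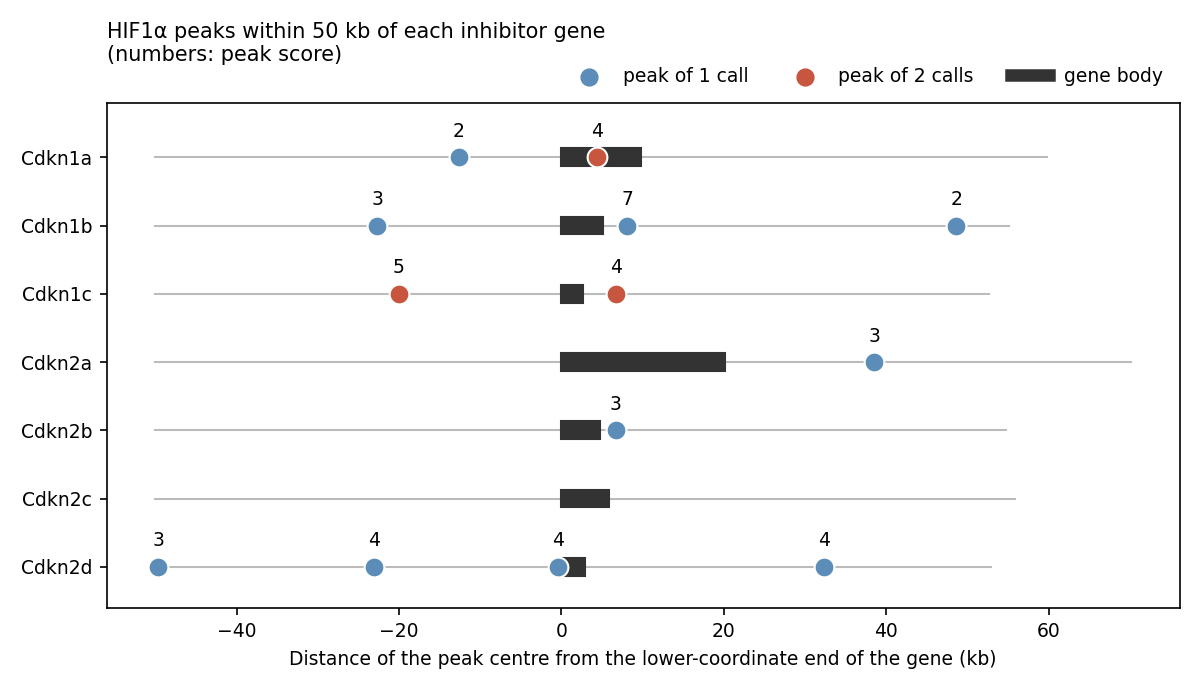
Peaks at each inhibitor gene, drawn by the distance of the peak centre from the lower-coordinate end of the gene (x axis, kb), with 1 row per gene, dark boxes for gene bodies, grey lines for the 50 kb windows and the peak score above each point. The 3 peaks of 2 calls (red) lie in the windows of Cdkn1a and Cdkn1c, the highest score of 7 is a peak of 1 call (blue) beside Cdkn1b, and the row of Cdkn2c is empty.

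Cdkn1a encodes p21, the inhibitor that p53 switches on after DNA damage. The gene spans 29090979 to 29100722 on chromosome 17 and had 2 peaks in its window. The closer one is of 2 calls scoring 4 and lies inside the gene (29095280 to 29095464, 185 bp wide). Its centre is 1603 bp downstream of the downstream RefSeq start (29093769) and 4393 bp downstream of the upstream start (29090979). The other peak (29078310 to 29078410) is of 1 call, has the lowest score of the list, 2, and lies 12.6 kb before the gene. Its centre is inside Trp53cor1, the lncRNA gene known as lincRNA-p21, which is transcribed next to Cdkn1a and is itself a target of p53. Cdkn1a was thus the 1 inhibitor gene with a peak inside its body, and that peak was of 2 calls. The promoter window of the downstream start, printed above, holds GCGTG once, 206 bases before the start, and the window of the upstream start holds neither core.

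Cdkn1b encodes p27, which accumulates as cells leave the cycle. It spans 134920401 to 134925525 on chromosome 6 and had 3 peaks in its window, all of 1 call. The closest (134928481 to 134928581) lies 3006 bp past the end of the gene and 8130 bp downstream of its start. Its score of 7 is the highest near any inhibitor gene, and no coding gene is nearer to it than Cdkn1b. Among all 15300 peaks of 1 call, 57 (0.373%) scored 7 or more, whereas 21.1% of the 1989 peaks of 2 calls did. The other peaks scored 3 and 2. The one of score 3 (134897700 to 134897800), 22.7 kb before Cdkn1b, lies 444 bp inside Gpr19, a receptor gene read in the opposite direction from the adjoining lncRNA gene 2810454H06Rik, and 90 of its 101 bases fall in the promoter window of 2810454H06Rik and 25 in that of Gpr19. The one of score 2 lies 43.5 kb past the gene and nearer to Apold1, at 12951 bp. The nearest peak of 2 calls was 96.8 kb from Cdkn1b, with a score of 4.

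Cdkn1c encodes p57, an imprinted gene read from the maternal copy. It spans 143458339 to 143461059 on chromosome 7, and both peaks in its window were of 2 calls. The closer one (143464929 to 143465076, score 4) lies 3.94 kb beyond the higher-coordinate end of Cdkn1c, inside the lncRNA gene Gm33663. The other (143438249 to 143438360, score 5) lies 20035 bp beyond the lower-coordinate end. It is nearer to the potassium channel gene Kcnq1, at 11.3 kb, and it has no gene of the table over its centre. Cdkn1c was the only inhibitor gene with more than 1 peak of 2 calls. Of protein-coding genes, 8.67% had a peak of 2 calls nearer than the 3.94 kb of Cdkn1c.

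Cdkn2a and Cdkn2b are neighbours on chromosome 4 and shared a single peak. Cdkn2a encodes p16 from its downstream start and the p53 activator p19ARF from its upstream start, and Cdkn2b encodes p15, an inhibitor induced by TGFβ. The peak (89312928 to 89313028) is of 1 call scoring 3. It lies 1946 bp upstream of the start of Cdkn2b (gene 89306289 to 89311032) and 18.4 kb upstream of the upstream start of Cdkn2a (gene 89274473 to 89294619). Its centre is inside the lncRNA gene Gm12610. One observation therefore counts for both genes, and it belongs to Cdkn2b by distance. The nearest peaks of 2 calls were 584 kb from Cdkn2b and 552 kb from Cdkn2a, farther than the median of protein-coding genes, 270 kb.

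Cdkn2c, which encodes p18 and spans 109660876 to 109666756 on chromosome 4, had no peak in its window. Its nearest peak was 88.2 kb away, with a score of 2 from 1 call, and its nearest peak of 2 calls was 381 kb away. Of protein-coding genes, 35.2% had no peak within 50 kb, and 22.7% had their nearest peak at least as far away as Cdkn2c. An empty window of this kind was therefore common in the list.

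Cdkn2d, which encodes p19INK4d and spans 21288459 to 21291421 on chromosome 9, had the most peaks of the family, 4, all of 1 call with scores of 3 or 4. Each of them was nearer to another coding gene. The closest (21287929 to 21288029, score 4) is 480 bp past the end of Cdkn2d and 3230 bp downstream of its start. It is only 10 bp upstream of the start of Kri1, which is read on the same strand as Cdkn2d. All bases of this peak fall in the promoter window of Kri1. All 3 core matches of that window lie under the peak and stand near the end of the Kri1 sequence printed above. The last 60 bases of that sequence are the ones under the peak. The peak at 23.1 kb (21265351 to 21265451, score 4) lies 196 bp inside Atg4d, an autophagy protease gene. The peak at 29.4 kb (21320733 to 21320833, score 4) lies 64 bp inside Slc44a2, a choline transporter gene. Its centre is also inside the lncRNA gene Gm39302. All 101 bases of this peak fall in the promoter window of Gm39302 and 36 in that of Slc44a2. The peak at 49.6 kb (21238775 to 21238875, score 3) lies 507 bp inside Keap1, the sensor of oxidative stress that restrains NRF2. This window holds 6 other coding genes, against a median of 3 for protein-coding genes, and of the 1136 genes with 6 such neighbours 9.51% had 4 or more peaks. Across the family, 7 of the 12 peaks lay nearer to a coding gene outside it, 4 of them in the window of Cdkn2d.

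**Figure D2:**
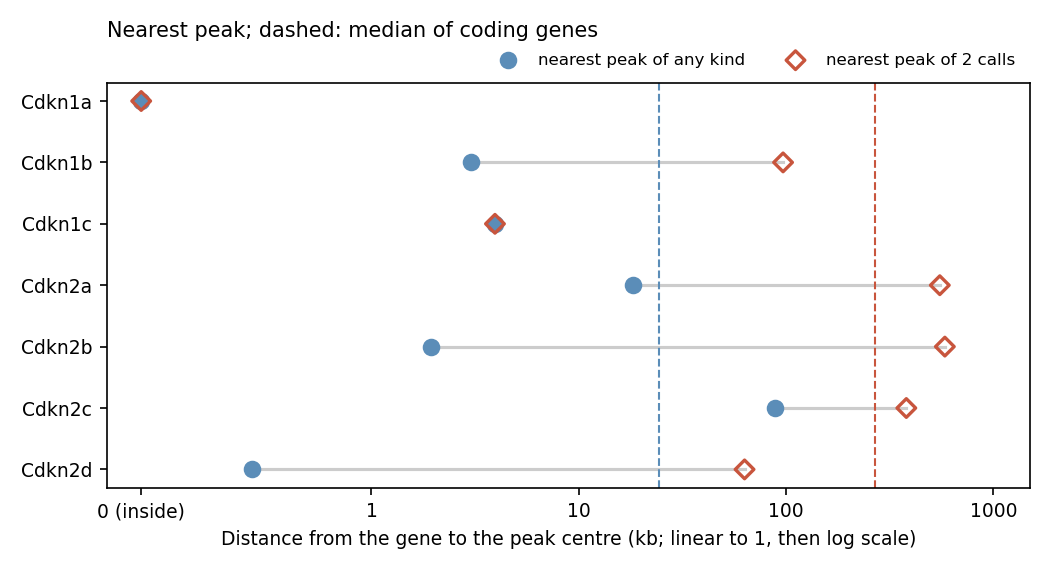
Distance in kb from each inhibitor gene to the nearest peak of any kind (blue circles) and of 2 calls (red diamonds), on an axis that is linear up to 1 kb and logarithmic beyond, with 0 for a peak inside the gene and dashed lines at the medians of protein-coding genes (24.3 and 270 kb). Both symbols coincide at Cdkn1a and Cdkn1c, and the circle of Cdkn2c alone lies beyond the median of 24.3 kb.

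The number of peaks per gene ranged from 0 to 4. The mean was 1.86 per inhibitor gene, against 1.27 per protein-coding gene. Both means count a peak for every gene whose window holds it. The peak shared by Cdkn2a and Cdkn2b thus counts for both, and the 4 peaks of Cdkn2d count although each is nearer to another coding gene. Cdkn1a and Cdkn1c had 2 peaks each, as did 18.8% of protein-coding genes, and 15.6% had more. Cdkn1b had 3, and 6.28% of protein-coding genes had more. Cdkn2d had 4, and 2.63% had more. Cdkn2a and Cdkn2b had 1 each, like 30.4% of protein-coding genes.

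**Figure D3:**
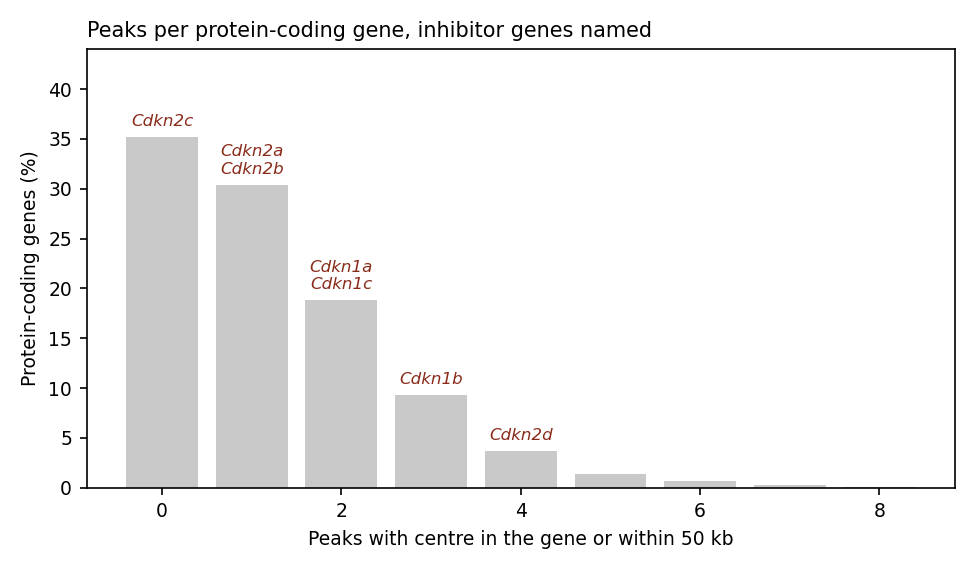
Share of protein-coding genes (y axis, %) by their number of peaks with centre inside the gene or within 50 kb (x axis, drawn up to 8), with the inhibitor genes named above their bars. Cdkn2c stands with the 35.2% of genes without a peak, and Cdkn2d with the 3.65% that have 4.

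The 12 peaks in the windows of inhibitor genes had a median score above that of the list. None scored as high as the closest peaks of the 4 known HIF1α targets named below. The 12 peaks had a median score of 4 and ranged from 2 to 7. The whole list had a median of 2, and the 11281 peaks within 50 kb of any coding gene had a median of 3. A score of 4 or more was reached by 7 of the 12, against 15.4% of the whole list and 22.1% of the peaks near coding genes. Among these 7 are the peaks that lay nearer to Kri1, Atg4d, Slc44a2 and Kcnq1 than to any inhibitor gene. By score, 2 of the 12 were at 2, 3 at 3, 5 at 4, 1 at 5 and 1 at 7. The 3 peaks of 2 calls scored 4, 4 and 5, at or just above the median of 4 of all peaks of 2 calls. None of the 12 reached 10, as 1.2% of the list did. The closest peaks of established HIF1α targets scored higher: 10 at Vegfa, 36 at Bnip3, 59 at Pdk1 and 100 at Ankrd37, all of 2 calls. Of the 12 peaks, 25% were of 2 calls, against 15.9% of peaks within 50 kb of any coding gene. With 12 peaks the counts are too small to read a trait of the inhibitor genes from these shares, and no test was made.

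**Figure D4:**
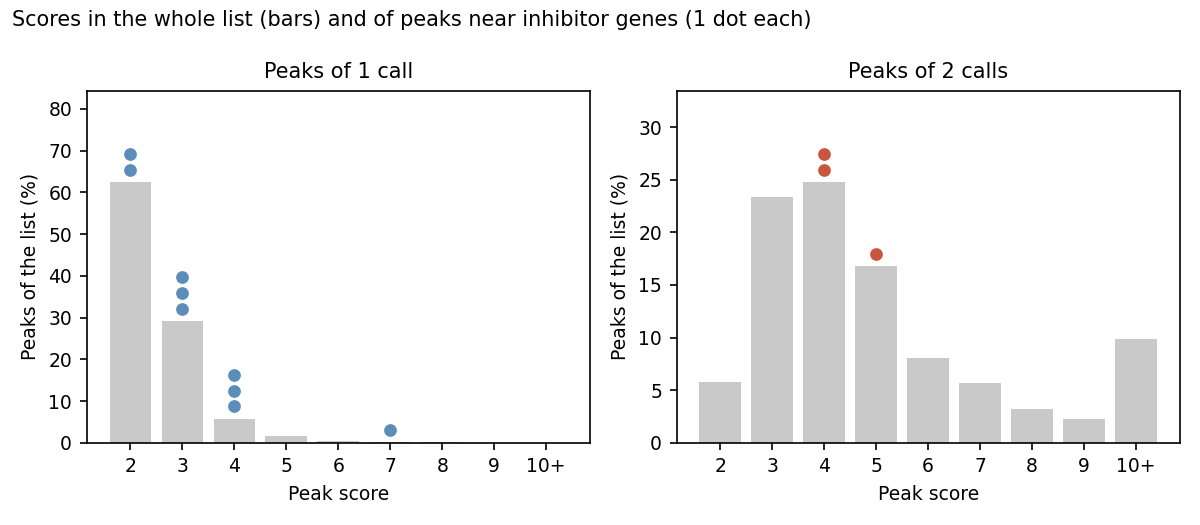
Share of the list's peaks (bars, y axis, %) by peak score (x axis, with 10 and more pooled), for peaks of 1 call (left) and of 2 calls (right), with 1 dot for each of the 12 peaks near inhibitor genes stacked above its score. The dot at 7 on the left is the peak beside Cdkn1b, and the 3 dots on the right, at 4 and 5, are those of Cdkn1a and Cdkn1c.

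At the starts of the inhibitor genes themselves no peak was found. None of their 9 promoter windows overlapped a peak, against 7.19% of all 32851 windows of that length. Of the 6 genes with a start in the table, 0 had a peak centre within 1 kb of one, against 16.6% of 17492 protein-coding genes in the table, and 3 had one within 5 kb (20.4%). Those 3 were Cdkn1a (1603 bp downstream), Cdkn2b (1946 bp upstream) and Cdkn2d (3230 bp downstream). At a background of this size, 6 genes without a peak at a start are not a result about the family.

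The letters of the HIF core were present in most of these windows. ACGTG or GCGTG occurred on either strand in 7 of the 9 windows, covering all 6 genes, against 43.8% of all promoter windows. The member windows are rich in CG pairs, with a median of 22 against 7 for all windows, and 74.3% of windows with 22 or more held a core. GCGTG was matched 4 times in the window of the upstream start of Cdkn2a. It was matched once in each window of Cdkn1b, Cdkn2b and Cdkn2d, at the downstream start of Cdkn1a and at the upstream start of Cdkn2c. ACGTG occurred in a single member window, that of the downstream start of Cdkn2c. It occurred in 19.6% of all windows and in 28.9% of windows with 22 or more CG pairs. The Cdkn2c window, with 8 CG pairs, is not in that class. In this window ACGTG was matched 4 times. The outer matches of the stretch printed above begin 123 and 100 bases before the start. A pair overlapping as CACGTG begins at bases 35 and 36, with the start itself counted as the first base. Cdkn2c, the gene with this core at a start, was also the gene with no peak in its window. These matches describe letters in a window and are not binding sites.

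The genes that act with the inhibitors were read from a list of 62 genes in 4 roles, all found in the table. Of these, 26 (41.9%) had a peak centre inside or within 5 kb, and 9 (14.5%) had one of 2 calls, against 32.7% and 9.04% of protein-coding genes. Among the kinases and cyclins of the cycle and PCNA, most of them bound by inhibitors, 7 of 15 had a peak and 4 had one of 2 calls. Cdk4, a kinase held by INK4 proteins, had a peak of 2 calls scoring 4, 194 bp outside the gene. Ccne1 (cyclin E1), whose complex with CDK2 is held by p21 and p27, had one of score 6 at 260 bp. Cdk7, which activates other kinases of the cycle, had one of score 4 at 79 bp, and Cdk2 had a peak of 1 call scoring 3 at 99 bp.

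Of the pocket protein and E2F genes, which act below the kinases, 2 of 10 had a peak and none had one of 2 calls. Over all protein-coding genes these shares were 32.7% and 9.04%. The 2 with a peak were Rbl1 (p107), with a score of 4 at 107 bp, and Tfdp1, an E2F partner, with a score of 3 at 415 bp. Rb1 and E2f1 were among those without a peak inside or within 5 kb. Among regulators that induce or repress inhibitor genes, 9 of 23 had a peak and 2, Foxo3 and Bmi1, had one of 2 calls. Trp53, Mdm2, Foxo1 and Smad3 were among those without a peak inside or within 5 kb. Foxo3, an inducer of Cdkn1b, had a peak of 2 calls scoring 8 at 102 bp. Peaks of 1 call scoring 4 lay at Ezh2 (72 bp), which silences the Cdkn2a and Cdkn2b locus, at Zbtb17 (84 bp), an activator of Cdkn2b, and at Tbx3 (131 bp), a repressor of Cdkn2a.

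Genes for the turnover and partners of the inhibitor proteins had a peak in 8 of 14 cases, 3 of them of 2 calls. Over all protein-coding genes these shares were 32.7% and 9.04%. Skp2 was among the genes without a peak inside or within 5 kb. Npm1 (nucleophosmin), which binds p19ARF, had one of 2 calls scoring 10, 727 bp from its end. Cul4a, a subunit of a ligase that degrades p21, had one of 2 calls and score 5 at 696 bp, and Xpo1, a nuclear export receptor, one of 2 calls and score 4 at 156 bp. Rnf123, a ligase for p27, had a peak of 1 call scoring 3 at 1064 bp. Over the 4 groups, 16 of the 26 genes with a peak had a peak centre within 1 kb of a gene end. Of the 5 inhibitor genes with a peak within 5 kb, 1 did so, Cdkn2d, and the others had theirs at 1946 bp (Cdkn2b) to 4393 bp (Cdkn1a) from the nearest end. Over all protein-coding genes the share with a peak centre within 1 kb of an end was 16.2%, or 49.7% of the 7114 genes with a peak inside or within 5 kb. The difference was not tested.

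**Figure D5:**
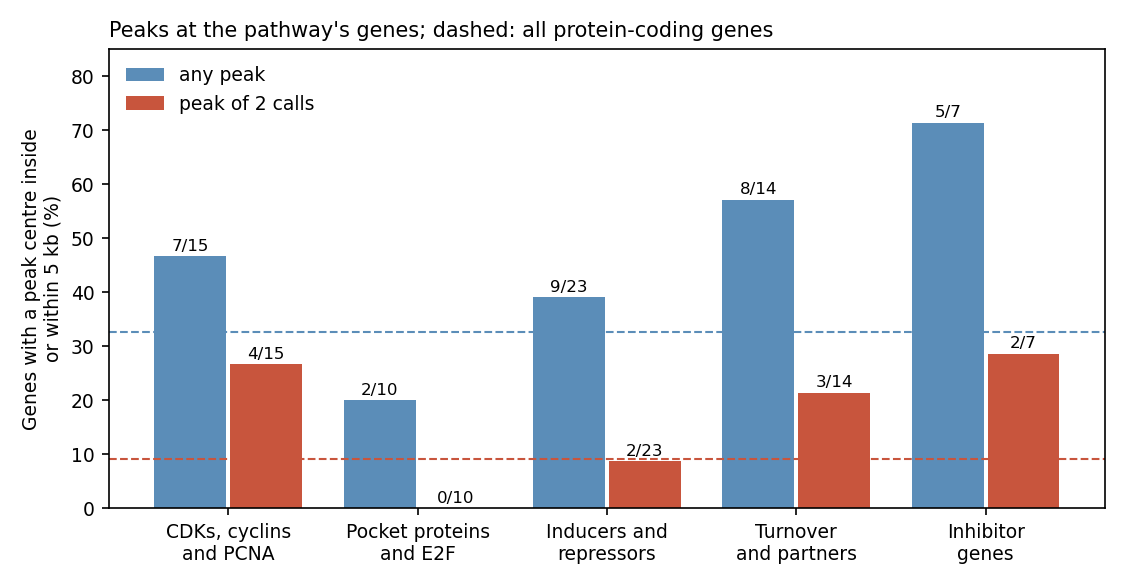
Share of genes (y axis, %) with a peak centre inside or within 5 kb, for any peak (blue) and for peaks of 2 calls (red), in 4 groups of pathway genes and in the inhibitor genes, with counts above the bars. The dashed lines mark all protein-coding genes (32.7% and 9.04%), and the pocket protein and E2F group is the one below both.

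The edge of the 50 kb window decided few peaks. Just inside it lay the Keap1 peak, 49.6 kb from Cdkn2d, and the peak 43.5 kb from Cdkn1b. Just outside it lay a peak of score 4 and 1 call 58.1 kb from Cdkn1a, 209 bp inside the splicing factor gene Srsf3. A peak of 2 calls and score 9 lay 63.1 kb from Cdkn2d and 4375 bp from Keap1. A peak of score 2 and 1 call lay 66.6 kb from Cdkn1b, inside Crebl2.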

How the data were processed

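Hearts of E12.5 embryos were cross-linked with 1.5% formaldehyde for 10 minutes and sheared to about 200 bp, and 4 μg of rabbit antibody was used per pulldown, per the labels' protocols. The tools named are Bowtie2 and HOMER, with the build mm10, per the submitters' processing notes. The deposited score of each peak is a whole number whose reference is not given in the sources used here, so it only describes and ranks peaks. Calls of each pulldown against the same input were merged by the authors, per the file headers, so calls in both are not independent of the input.

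Gene positions came from RefSeq (GRCm38.p6), without genes placed in the first 3 Mb of a chromosome (Y excepted). The table gives no exons, so introns and UTRs are not told apart. Peak centres were placed against gene bodies and starts with pandas 2.3.3. No test was run: the merged list has no values per library. Window counting was checked on simulated peaks. The 7 members and the 62 pathway genes were chosen with earlier results of these data known. Genes outside the family are named where nearest to a member's peak, or, per pathway group, the 4 closest within 5 kb, besides 4 known HIF1α targets. Bmi1, the pathway genes named as without a peak, the lncRNA genes and the genes beyond the window edge were named outside these rules. Alternatives covered the window (5 and 1 kb), scores of at least 3, peaks of 2 calls, any overlapping base, assignment to the nearest coding gene and ACGTG alone.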

Additional observations from a re-analysis of the deposited data

How the results depend on the processing

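Counts moved with the window and with the calls required. At 5 kb there were 5 distinct peaks and 32.7% of protein-coding genes had one. At 1 kb, 2 inhibitor genes had 2 distinct peaks, against 28.4% of protein-coding genes. With peaks of 2 calls alone, 2 inhibitor genes had 3 distinct peaks, against 21.4%. Where each peak counted only for its nearest coding gene, 5 peaks at 4 inhibitor genes were left, against 34.1% of protein-coding genes (a share added after seeing the data), and Cdkn2d and Cdkn2a had none. Requiring a score of 3 or more left 6 genes and 10 peaks, against 47.7% of protein-coding genes, and counting any base of a peak in the window gave the same 6 and 12. Of the pathway genes, 16 had a peak centre within 1 kb of an end and 9 a peak of 2 calls. With ACGTG alone as the core, 1 inhibitor gene had a match. Leaving out a pulldown could not be run on a merged list. No paired analysis was possible because the list holds no values per pulldown. The unknown depth limits what an empty window, such as that of Cdkn2c, can show.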

Other observations

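Of the 12 peaks near inhibitor genes, 3 (25%) had their centre inside a lncRNA gene and outside every protein-coding gene, against 5.28% of the 11281 peaks within 50 kb of a coding gene and 6.76% of all 17289. The genes were Trp53cor1 beside Cdkn1a, Gm33663 beside Cdkn1c and Gm12610 beside Cdkn2b, and the peak at Gm33663 was of 2 calls. This count was made after the positions were seen and was not tested.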
